A study of Mus musculus with 6 samples.

Results

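The insulin and mTOR signalling genes described here are 39 named protein-coding genes that carry the signal of insulin and insulin-like growth factor into the cell. Each ATAC-seq peak was given to the coding gene whose annotated end lay nearest to its summit, at most 100 kb away. A summit 1 kb or less from an end was called a gene-end peak and a more distant one a far peak. Overlapping peaks of the 6 libraries (1 bp or more) were joined, and 282 of the 68913 regions so formed belonged to 36 of the 39 genes. ATAC-seq marks open chromatin, since a transposase inserts adapters where DNA is accessible. The 6 libraries came from wild-type (WT) mouse brown pre-adipocytes, the precursors of brown fat cells, with 3 libraries at Day 1 and 3 at Day 0 of differentiation into brown adipocytes. The labels give BAT as the cell line and do not say how the line was made, whether replicates were separate cultures, or which agents were added. Any p-value therefore reflects library-to-library spread alone, and that spread may be technical. Age and sex of the source animals are not given in the sources used here, and no cells with a deleted gene were analysed.

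Insulin binds its receptor, a tyrosine kinase that phosphorylates docking proteins of the IRS family. These recruit PI3-kinase, which makes a membrane lipid that brings PDK1 and Akt together. Akt then restrains FOXO transcription factors and GSK3, releases glucose transporters to the surface, and relieves the brake that the TSC complex places on mTOR. Insulin is a standard component of adipogenic media, and brown adipocytes use this pathway to take up glucose and to make lipid. Pde3b, which encodes the phosphodiesterase through which insulin lowers cAMP in fat cells, links the pathway to lipolysis.

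The libraries held 4919755, 5603667 and 7302457 fragments at Day 1, against 11011889, 8127635 and 9160156 at Day 0, and their lists held 12556 to 23274 peaks at Day 1 and 39211 to 55511 at Day 0 (exact two-sided permutation p = 0.1, the smallest that 3 libraries against 3 allow). Day 1 replicate 3 stood apart, with the most fragments of its day and the shortest list. Counts were therefore made in the deposited lists and in equal lists, which hold the 12556 strongest peaks of each library by q value. The weakest peak of an equal list had a −log10 q of 5.85, 7.11 and 1.31 at Day 1, against 22.0, 16.4 and 13.0 at Day 0. A gene missing from an equal list thus has a lower rank there, which need not mean less signal. Of 7 preadipocyte markers, 1, 2 and 1 had a gene-end peak in the Day 1 lists as deposited and 3, 3 and 3 in those of Day 0, with Pdgfrb, Ly6a and Ebf2 among them and Pdgfra, Cd34, Dlk1 and Thy1 at 0 in all. Of 5 mature adipocyte markers, 2, 3 and 3 were called at Day 1 and 1, 2 and 1 at Day 0, and Ucp1 was at 0. Cidec and Plin1 were called at Day 1 alone and Adipoq in replicate 2 of each day. Fabp4 went the other way, called in every Day 0 list but not in Day 1 replicate 2. Endothelial markers had 0 or 1 of 6, immune markers 0 of 5 at Day 1 and 1 or 2 at Day 0, myogenic markers 0 of 3 except Myod1 in Day 0 replicate 1, and epithelial markers 0 of 3. In the same lists far peaks lay at 5, 3 and 0 endothelial markers at Day 1 and 6, 6 and 5 at Day 0. Epithelial markers with a far peak numbered 1, 1 and 1 against 3, 3 and 2 at Day 0. Preadipocyte markers with one numbered 5, 5 and 2 against 6, 5 and 6. Mature adipocyte markers with one numbered 3, 2 and 2 at Day 1 and 3, 2 and 2 at Day 0. For immune markers these were 1, 0 and 1 against 1, 1 and 1, and for myogenic markers 0, 0 and 0 against 1, 0 and 0. Of all coding genes, 32.9% had a gene-end peak at Day 1 and 42.3% at Day 0 on average, and 25.7% and 45.8% a far peak. In bulk libraries, fewer cells with an open site and a less open site in every cell cannot be told apart.

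Peaks far from gene ends were assigned to these genes more often at Day 1 than at Day 0 once lists of equal length were compared. They numbered 41, 37 and 37 at Day 1, against 25, 24 and 24 at Day 0, or 38.3 ± 2.31 and 24.3 ± 0.577 (SD, n = 3 each), and the days did not overlap. Far peaks of all coding genes were fewer at Day 1, with 5629, 5328 and 5460 at Day 1 and 6182, 6222 and 6404 at Day 0, a difference of −797 (exact two-sided permutation p = 0.1). The signalling genes therefore held 0.728%, 0.694% and 0.678% of all far peaks at Day 1 and 0.404%, 0.386% and 0.375% at Day 0. In the deposited lists far peaks of all coding genes numbered 10414, 12553 and 5460 at Day 1 and 36486, 26438 and 24491 at Day 0. Deposited counts of single genes are to be read beside these totals. The signalling genes also had fewer far peaks at Day 1 there, 63, 72 and 37 against 178, 127 and 116 at Day 0. Their share of all far peaks was still higher at Day 1 there, at 0.605%, 0.574% and 0.678% against 0.488%, 0.480% and 0.474% at Day 0. These counts are a description, with no test.

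**Figure D1:**
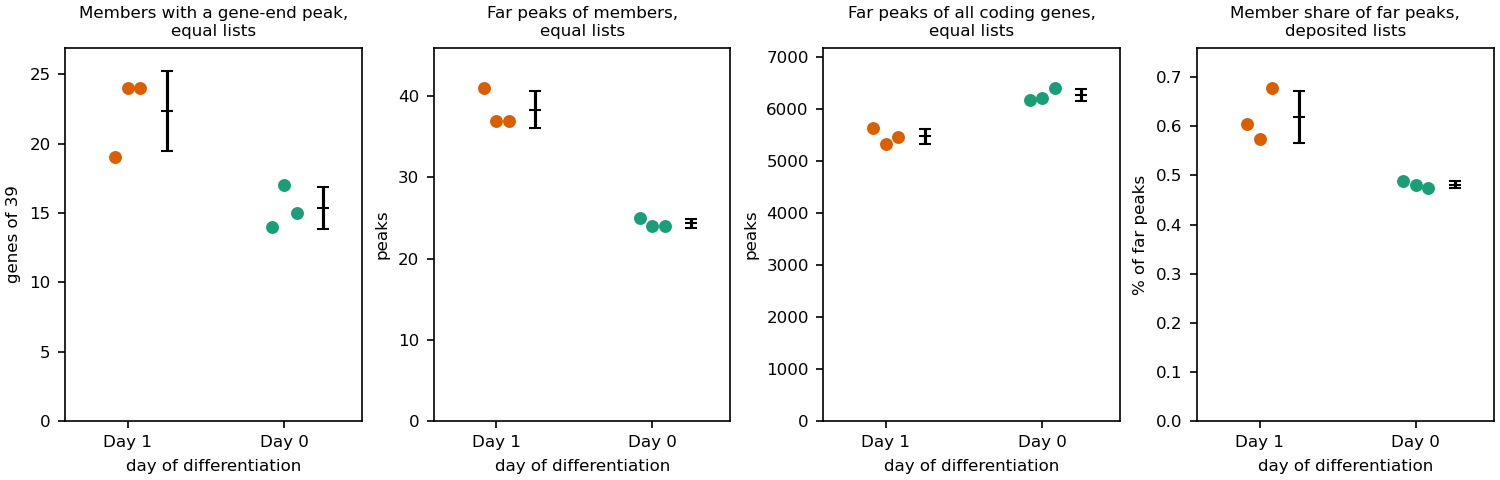
Per-library totals, Day 1 left and Day 0 right, with the mean and SD of 3 libraries beside the points and all axes starting at 0. From left to right: insulin and mTOR signalling genes with a gene-end peak (of 39), their far peaks, far peaks of all coding genes (numbers, equal lists) and the percent of all far peaks that belong to the signalling genes (deposited lists). The Day 1 points lie above the Day 0 points in every panel except that of all coding genes.

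In equal lists 17 of the 104 regions of these genes, at 13 genes, were called in 3 of 3 Day 1 and 0 of 3 Day 0 libraries, or 16.3% against 5.73% of all 21088 regions. The mirror class held 7 regions at 7 genes, or 6.73% against 8.05% of all regions. Among far regions alone, 13 of 74 were Day 1 only (17.6%, against 6.46% of all far regions) and 7 of 74 were Day 0 only (9.46%, against 12.5%). At gene ends 4 of 30 were Day 1 only (13.3%, against 4.52%). Of the 17, those of Insr, Irs1 and Pde3b and 1 of Pde3a had no Day 0 peak of any strength, and the other 13 had a lower-ranked peak in at least 1 Day 0 library. Of the 7 Day 0 only regions, those of Igf1r, Irs1, Pik3r3 and Rictor had no Day 1 peak.

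**Figure D2:**
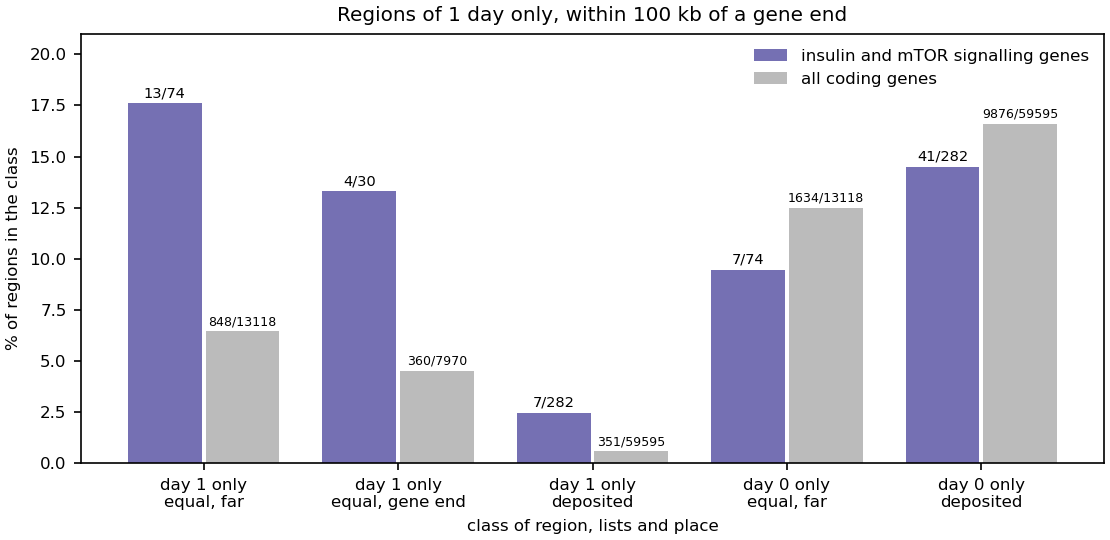
Percent of regions called in all 3 libraries of 1 day and in none of the other, for the insulin and mTOR signalling genes (left bar of each pair) and all coding genes (right bar), with the numbers of regions above the bars. The signalling genes stand above all coding genes in the 3 Day 1 only classes, 17.6% against 6.46% for far regions of equal lists, and below them in both Day 0 only classes.

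In the deposited lists 7 of 282 regions were Day 1 only, or 2.48% against 0.589% of all 59595 regions within 100 kb of a gene, at Insr, Irs1, Irs2, Pde3a, Pde3b, Foxo1 and Phlpp1. Day 0 only regions numbered 41 at 22 genes, or 14.5% against 16.6%. They were most numerous at Tbc1d4 and Phlpp1, with 4 each. Counted per gene in equal lists, 9 of 35 signalling genes (25.7%) had more peaks in every Day 1 than in every Day 0 library, against 6.06% of 11615 coding genes with a peak. The 9 were Insr, Irs2, Sos1, Sos2, Pik3r1, Foxo1, Tbc1d1, Pde3a and Pde3b. Fewer peaks in every Day 1 library were found at 1 of 35, Pik3r3, against 6.51% of coding genes.

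The excess of Day 1 only regions depended on how deep into the lists the count went. With lists shortened to the 6278 strongest peaks, 2 of 47 regions were Day 1 only, or 4.26% against 4.69% of all regions, so the share among the strongest peaks was near the background. With peaks of a −log10 q of at least 5 and lists of equal length, 5 of 66 were Day 1 only (7.58%, against 5.28%) and 5 were Day 0 only (7.58%, against 7.79%). Without Day 1 replicate 3, 21 of 93 were Day 1 only (22.6%, against 9.0%), and with lists then lengthened to 20069 peaks 24 of 149 were (16.1%, against 8.49%). Far peaks without that library averaged 39 at Day 1 and 24.3 at Day 0. Depth and the q value at which lists end moved with the day, and their part in the excess was not tested.

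Gene ends of the pathway were open on both days more often than those of coding genes at large. In the deposited lists, 26, 31 and 24 of the 39 genes had a gene-end peak at Day 1 and 32, 31 and 28 at Day 0, or 69.2% and 77.8% on average, against 32.9% and 42.3% of 21883 coding genes. A gene-end peak stood in all 6 libraries for 21 of them (53.8%, against 23.5% of coding genes), and a far peak in all 6 for 19 (48.7%, against 14.6%). These are long genes, with a median span of 81.8 kb against 17.2 kb for coding genes, and the part of length in these shares was not tested. In equal lists 19, 24 and 24 genes had a gene-end peak at Day 1 and 14, 17 and 15 at Day 0. That is 57.3% and 39.3% on average, against 28.0% and 22.8% of coding genes, so both shares were higher at Day 1. Gene-end peaks as a whole also made up more of the Day 1 lists, 50.5% ± 1.25 against 40.4% ± 0.978 at Day 0 (SD, n = 3 each, exact two-sided permutation p = 0.1).

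Of the 28 signalling genes with a gene-end peak in any equal list, 4 had it in 3 of 3 Day 1 and 0 of 3 Day 0 lists, namely Grb2, Sos1, Pik3r1 and Foxo1. The rule held for 4.29% of the 8001 coding genes with such a peak. The mirror case, present in 0 of 3 Day 1 and 3 of 3 Day 0 lists, held for 0 of the 28 and for 0.775% of coding genes. Each of the 4 genes had a gene-end peak in all 3 deposited Day 0 lists, so their absence from the equal lists was one of rank. Foxo1, a transcription factor gene of the fasting response, had fold enrichments of 6.28, 8.64 and 5.46 at Day 1 and 7.08, 6.88 and 5.98 at Day 0. Fold enrichment is the authors' ratio of summit pileup to local background within a library. These values overlapped fully between the days. The peak ranked 12234, 7050 and 9367 in the Day 1 lists and 29637, 24728 and 26680 in the Day 0 lists. Pik3r1 encodes p85α, the main regulatory subunit of PI3-kinase, and had fold enrichments of 8.22, 7.54 and 7.42 at Day 1 and 8.97, 8.26 and 6.37 at Day 0. These enrichments overlapped as well. The Pik3r1 peak ranked 6042, 8668 and 4972 at Day 1, against 14885, 13740 and 22585 at Day 0. For genes picked by this rule the ranks differ by definition. They also come from lists of unlike length, so they show no day difference of their own.

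Promoter sequences of 3 genes are shown because their gene-end peaks sit on the start itself and differ between the days in rank or in call. Each is 300 bases long, 250 before and 50 after the RefSeq start on GRCm38.p6, the assembly that mm10 names, printed 5′ to 3′ on the gene's strand. Capitals mark matches on either strand to the GC box GGGCGG, the CCAAT box CCAAT or the ETS motif CCGGAAG. Foxo1 lies on chr3:52268087-52268386 (plus strand), Pik3r1, at the outermost of its listed starts, on chr13:101768168-101768467 (minus strand) and Mtor on chr4:148448332-148448631 (plus strand).
Foxo1: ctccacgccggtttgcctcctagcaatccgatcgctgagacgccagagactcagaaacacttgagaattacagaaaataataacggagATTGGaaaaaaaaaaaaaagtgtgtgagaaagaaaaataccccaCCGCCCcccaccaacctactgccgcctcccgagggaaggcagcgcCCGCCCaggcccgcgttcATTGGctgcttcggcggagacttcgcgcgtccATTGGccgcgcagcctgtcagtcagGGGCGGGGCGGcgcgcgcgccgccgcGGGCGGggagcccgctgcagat
Pik3r1: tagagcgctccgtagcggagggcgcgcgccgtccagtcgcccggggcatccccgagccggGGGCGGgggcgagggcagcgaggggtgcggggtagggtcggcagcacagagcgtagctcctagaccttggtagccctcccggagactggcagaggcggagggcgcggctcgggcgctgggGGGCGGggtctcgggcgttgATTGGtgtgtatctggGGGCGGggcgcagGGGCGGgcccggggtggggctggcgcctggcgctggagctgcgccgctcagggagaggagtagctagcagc
Mtor: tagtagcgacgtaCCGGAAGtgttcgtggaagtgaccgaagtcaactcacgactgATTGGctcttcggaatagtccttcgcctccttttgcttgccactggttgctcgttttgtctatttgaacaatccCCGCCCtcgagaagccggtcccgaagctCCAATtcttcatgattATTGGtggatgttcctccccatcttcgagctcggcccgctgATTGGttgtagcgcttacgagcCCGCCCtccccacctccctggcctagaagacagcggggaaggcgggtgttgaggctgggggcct
The Foxo1 window holds 5 GC boxes, of which a pair overlap, and 3 CCAAT boxes, the Pik3r1 window 4 and 1, and the Mtor window 2 and 4 with 1 ETS match. Their GC contents are 61.3%, 75.7% and 56.7%. Around the Mtor start the summits lay 12, 16 and 6 bp downstream at Day 1 and 10 bp downstream in Day 0 replicate 1, with none in the other Day 0 libraries. Summits nearest to the Foxo1 start lay at 129, −36 and 192 bp at Day 1 and at −55, −36 and −64 bp at Day 0, where negative values are upstream. For Pik3r1 they lay at 36, −53 and −84 bp at Day 1 and at 116, 42 and −71 bp at Day 0.

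RefSeq windows were found for 35 of the 39 genes, 50 windows in all, since some genes have several listed starts. The GC box occurred in 64.0% of them, against 35.7% of all 32851 windows of that length. The CCAAT box occurred in 36.0% against 37.4%, the ETS motif in 12.0% against 8.86%, and the E-box CACGTG in 6.0% against 7.15%. A FOXO motif, GTAAACA, was found in 2.0% against 3.65%, and the RUNX motif TGTGGT in 4.0% against 16.8%. C/EBP (TTGCNNAA) stood in 5 of the 50 windows, against 10.8% of all, AP-1 (TGANTCA) in 4.0% against 7.81%, the CRE TGACGTC in 2.0% against 3.21%, and the glucocorticoid receptor half-site pair ACANNNTGT in 2.0% against 6.85%. All were searched on both strands, and the windows of 1 gene can overlap. A match is a string of letters and not evidence that the factor binds.

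**Figure D3:**
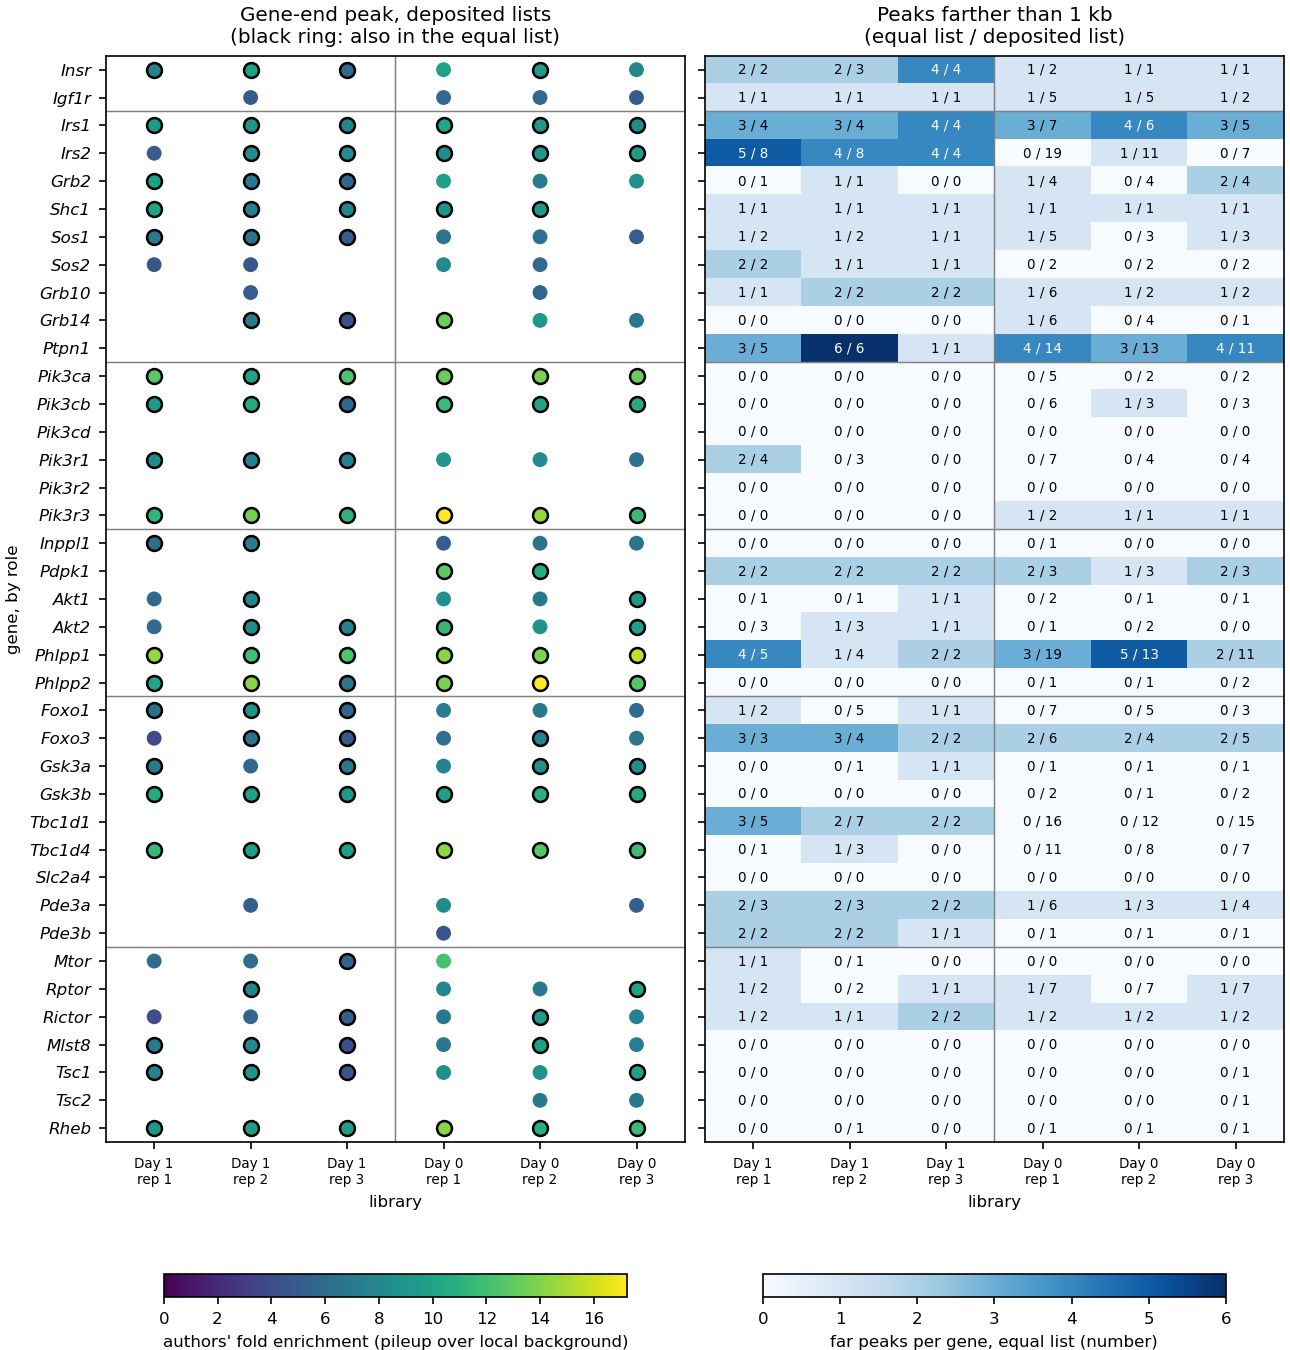
All 39 insulin and mTOR signalling genes by role (rows) in the 3 Day 1 and 3 Day 0 libraries (columns). On the left a dot marks a gene-end peak in the deposited list, its colour the authors' fold enrichment and a black ring its presence in the equal list, and on the right each cell gives far peaks in the equal and the deposited list, coloured by the number in the equal list. Pik3cd, Pik3r2 and Slc2a4 have no peak in any library, and Grb2, Sos1, Pik3r1 and Foxo1 are ringed in all Day 1 and in no Day 0 library.

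Insr, the insulin receptor gene, had 3, 3 and 5 peaks in the Day 1 equal lists and 1, 2 and 1 in those of Day 0. A region on chr8:3288693-3288897, 9.16 kb outside the gene, had fold enrichments of 10.6, 8.42 and 6.61 at Day 1 and no peak in any Day 0 list. Another far region inside Insr, on chr8:3220781-3221841, was called in all 6 deposited lists, with mean fold enrichments of 10.4 ± 0.416 at Day 1 and 13.4 ± 2.72 at Day 0 (SD, n = 3 each). Its gene-end peak was in the equal lists of 3 Day 1 and 1 Day 0 libraries and in every deposited list. Igf1r, the receptor gene for insulin-like growth factor 1, had 1 peak in every equal list, at other sites at Day 1 than at Day 0. A region on chr7:68148234-68148599 had fold enrichments of 6.85 and 9.02 in Day 1 replicates 1 and 2 and no peak in any Day 0 list. A region 69.7 kb inside the gene, on chr7:68021661-68022119, had no peak in any Day 1 list and fold enrichments of 17.1, 15.6 and 11.7 at Day 0. At the Igf1r gene end 1 of 3 Day 1 and 3 of 3 Day 0 deposited lists held a peak. The 1 kb limit cuts through a nearby region, on chr7:67951026-67951312. It had a fold enrichment of 5.75 in Day 1 replicate 3, where it was the peak of the equal list. In the deposited Day 0 lists it had 3.99, 4.65 and 4.96. Its summit counted as far except in Day 0 replicate 3, where it lay 0.92 kb from the end.

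Irs2, the docking protein gene, had 5, 5 and 5 peaks in the Day 1 equal lists and 1, 2 and 1 in those of Day 0. Of its far regions, 3 were in all Day 1 and no Day 0 equal list, at 56.1, 49.2 and 38.4 kb beyond its 3′ end. The strongest of the 3 by mean, on chr8:10935309-10935732, had fold enrichments of 9.18, 7.30 and 8.11 at Day 1 and 5.08 and 4.05 in Day 0 replicates 1 and 2, with no peak in replicate 3. The other regions were also called in all 3 deposited Day 0 lists, with overlapping enrichments. In the deposited lists Irs2 had fewer peaks at Day 1, a mean of 8.0 against 13.7 at Day 0. A further region there, on chr8:10926690-10927448, had a mean fold enrichment of 4.69 ± 0.620 at Day 1 (SD, n = 3) and no Day 0 peak. Irs1, its paralogue, had equal numbers on average, 4.33 peaks at both days, yet a far site of each day lay next to the other. The region on chr1:82159252-82159775, 73.7 kb beyond its 3′ end, had fold enrichments of 10.4, 11.6 and 12.1 at Day 1 and no Day 0 peak. The region on chr1:82155916-82156351, 77.0 kb beyond that end, had none at Day 1 and 11.9, 10.6 and 9.76 at Day 0. The Irs1 gene end was called in every equal list.

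**Figure D4:**
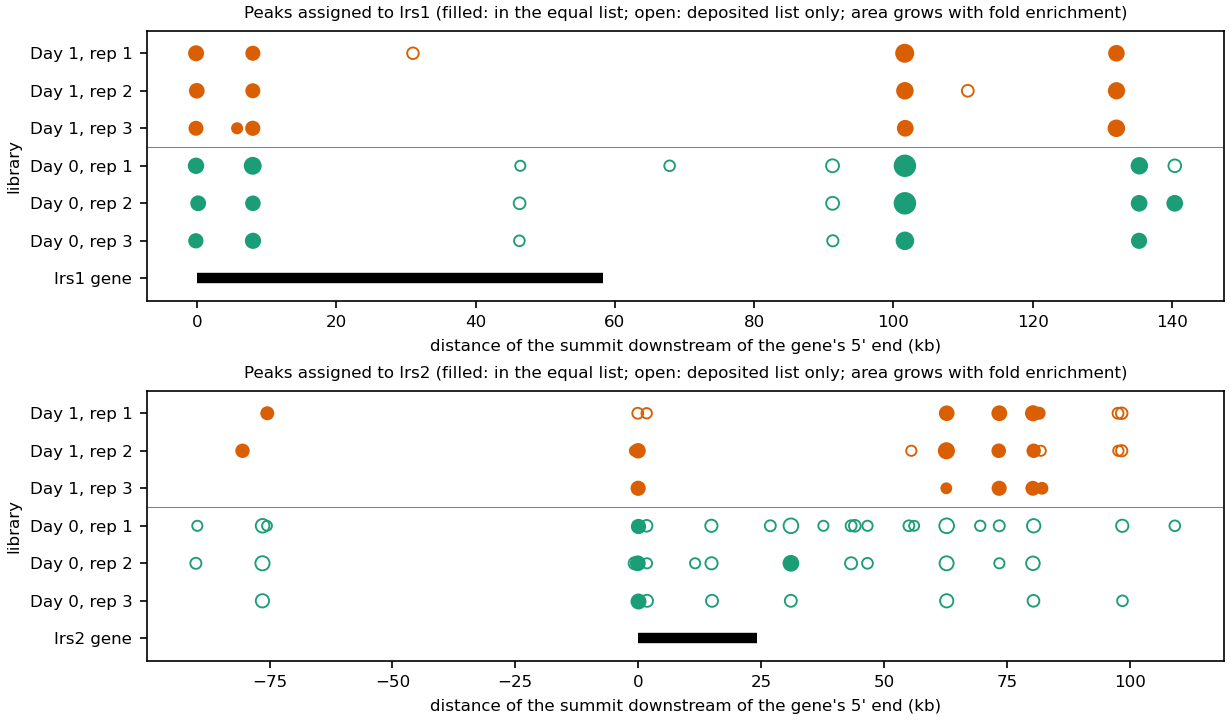
Peak summits assigned to Irs1 (top) and Irs2 (bottom) in the 3 Day 1 libraries (upper rows) and the 3 Day 0 libraries (lower rows), by distance downstream of the gene's 5′ end in kb, with the gene as a black bar. Filled points are in the equal list, open points in the deposited list only, and their area grows with the authors' fold enrichment. Near 132.0 kb Irs1 has a point in each Day 1 and no Day 0 library, and near 135.3 kb the reverse.

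The adaptor gene Grb2 and the exchange factor gene Sos1, which pass the signal to Ras, were both among the genes with a gene-end peak in all Day 1 and no Day 0 equal lists. At the Grb2 end, on chr11:115708506-115708848, fold enrichments were 9.72, 6.91 and 5.55 at Day 1, against 9.61, 7.01 and 8.51 at Day 0, so they overlapped. This region lay 8.83 kb from the nearest listed start. A far region at a listed start of Grb2, on chr11:115699245-115699751, was called in Day 1 replicate 2 alone, at 8.64. In the deposited Day 0 lists it had 11.4, 8.72 and 11.5. For Sos1, on chr17:80479466-80479876, fold enrichments were 6.95, 6.53 and 4.98 at Day 1 and 4.74 and 4.65 in Day 0 replicates 1 and 3. A second Sos1 gene-end region, on chr17:80480340-80480517, had 4.98 and 4.48 in Day 1 replicates 2 and 3. Its Day 0 values were 6.56, 6.16 and 5.01. The highest gene-end enrichment of Sos1 in each library thus overlapped between the days. Sos2, a second exchange factor gene, had 2, 1 and 1 peaks in the Day 1 and 0 in each Day 0 equal list. Its region on chr12:69683677-69683882, 1.91 kb upstream, had fold enrichments of 8.46, 7.58 and 4.40 at Day 1 and 5.72 and 7.27 in Day 0 replicates 2 and 3. Shc1, another adaptor gene, had a peak near its second listed start in all 6 deposited lists. Grb10 and Grb14 encode adaptors that restrain the receptor. A Grb10 region 9.30 kb inside the gene, on chr11:11939530-11940023, was called in all 6 libraries with mean fold enrichments of 9.83 ± 1.59 at Day 1 and 21.7 ± 2.17 at Day 0 (SD, n = 3 each), values that depth can move. Grb14 had no region of 1 day only in equal lists. Ptpn1, the gene of the phosphatase PTP1B that dephosphorylates the receptor, had no gene-end peak and 5, 6 and 1 far peaks at Day 1 and 14, 13 and 11 at Day 0 in the deposited lists. Of these, the region on chr2:167931819-167932595 lies at the listed start of Ptpn1, which is 1.56 kb or so inside the annotated end, and was called in all 6. Its region on chr2:167951211-167951735 had fold enrichments of 5.07 in Day 1 replicate 1 alone and 10.3, 11.3 and 10.6 at Day 0.

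The catalytic subunit genes Pik3ca and Pik3cb had a gene-end peak in all 6 equal lists, and so did the regulatory subunit gene Pik3r3. Pik3cd, which encodes the catalytic subunit p110δ of white blood cells, and the regulatory subunit gene Pik3r2 had no peak in any list. Pik3r1 had 3, 1 and 1 peaks in the Day 1 equal lists and 0 in each Day 0 list, but a mean of 3.33 at Day 1 and 6.33 at Day 0 in the deposited lists. Pik3r3 was the only signalling gene with fewer peaks in every Day 1 than in every Day 0 equal list, 1, 1 and 1 against 2, 2 and 2. The peak that made the difference, on chr4:116300754-116301379, 1.80 kb inside its 3′ end, was absent at Day 1 and had fold enrichments of 14.8, 13.8 and 14.8 at Day 0. Far peaks of the 6 subunit genes in the deposited lists numbered 4, 3 and 0 at Day 1 and 20, 10 and 10 at Day 0. Those of all coding genes were also fewer at Day 1 there, 10414, 12553 and 5460 against 36486, 26438 and 24491 at Day 0.

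Akt2, the Akt gene most tied to glucose uptake, had 0, 2 and 3 peaks in the Day 1 equal lists and 1, 0 and 1 in those of Day 0, so the days overlapped. Its gene-end peak had fold enrichments of 5.88, 8.21 and 7.44 at Day 1 and 11.4, 8.70 and 9.75 at Day 0. Akt1, the most widely expressed Akt gene, had a gene-end peak in 2 deposited lists at Day 1 and 3 at Day 0. A region at its 3′ end, 20.9 kb from the nearest listed start, was called in each of these lists. Pdpk1 encodes PDK1, the kinase that activates Akt. A region at its listed start, on chr17:24141190-24142052, was called in all 6 equal lists. Its gene-end peak lay at the 3′ end, 68.0 kb from the nearest listed start. That peak was given to Pdpk1 in 0 Day 1 and 2 Day 0 lists, but a summit lay within 1 kb of its ends in all 6 libraries. In the others that summit was nearer to a neighbour, as Kctd5 and Amdhd2 end within 1 kb of Pdpk1. Inppl1 encodes the lipid phosphatase SHIP2, and 2 Day 1 and 0 Day 0 equal lists held its gene-end peak, against 2 Day 1 and 3 Day 0 deposited lists. Phlpp1 and Phlpp2 encode phosphatases that inactivate Akt, and both gene ends were in every equal list. The Phlpp1 peak stood high in every list, at ranks 308, 848 and 426 at Day 1 and 953, 1005 and 614 at Day 0. A region 70.4 kb inside Phlpp1, on chr1:106241935-106242438, had a fold enrichment of 4.94 in Day 1 replicate 2 alone and of 17.8, 13.6 and 11.1 at Day 0. In the deposited lists a second one, on chr1:106268111-106268556, was called at 7.1 ± 0.892 at Day 1 (SD, n = 3) and in no Day 0 list.

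The 9 genes of Akt targets and outputs had the largest day difference in far peaks of the 6 role groups in equal lists, with 11, 10 and 9 at Day 1 and 3, 3 and 3 at Day 0. The 9 docking and adaptor genes had 16, 19 and 14 at Day 1 and 12, 10 and 12 at Day 0, and the receptor genes 3, 3 and 5 against 2, 2 and 2 at Day 0, again without overlap. Ranges overlapped for the 6 PI3-kinase genes, with 2, 0 and 0 at Day 1 and 1, 2 and 1 at Day 0, and for the 6 kinase and phosphatase genes, with 6, 4 and 6 against 5, 6 and 4 at Day 0. In the deposited lists, where all coding genes also had fewer far peaks at Day 1, the direction reversed. Akt targets and outputs had 16, 25 and 9 at Day 1 against 50, 35 and 38 at Day 0. Docking and adaptor genes had 24, 25 and 14 against 64, 46 and 36, and receptor genes 3, 4 and 5 against 7, 6 and 3, with overlap. Tbc1d1, which encodes a Rab regulator of glucose transporter traffic, had 3, 2 and 2 far peaks at Day 1 and 0 in each Day 0 equal list. Both of its regions of Day 1 only were also called in all 3 deposited Day 0 lists. On chr5:64326470-64326914 fold enrichments were 6.95, 11.6 and 7.56 at Day 1, against 8.98, 8.09 and 8.14 at Day 0, and the Tbc1d1 total in deposited lists was lower at Day 1, 5, 7 and 2 against 16, 12 and 15 at Day 0. Its relative Tbc1d4, which encodes AS160, had a gene-end peak in all 6 equal lists. Pde3b had 2, 2 and 1 peaks at Day 1 and 0 in each Day 0 equal list. The region on chr7:114364081-114364588, 50.8 kb outside Pde3b, had fold enrichments of 8.94, 9.95 and 6.93 at Day 1 and no Day 0 peak of any strength. Another Pde3b region, 57.9 kb inside the gene, was called in the deposited Day 0 lists alone, at 9.66 ± 1.38 (SD, n = 3).

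Pde3a, the paralogue of Pde3b that is best known from heart and platelets, had regions of both kinds within the gene. On chr6:141333309-141333594 fold enrichments were 7.60, 11.9 and 10.8 at Day 1, against 8.69, 10.1 and 7.63 at Day 0, so they overlapped. On chr6:141347813-141348157 they were 9.50, 9.72 and 5.41 at Day 1, with no Day 0 peak. Another Pde3a region, on chr6:141408689-141409152, had 5.11 and 5.45 in Day 1 replicates 1 and 2 and 15.9, 17.0 and 13.5 at Day 0. Foxo1 had 2, 1 and 2 peaks at Day 1 and 0 in each Day 0 equal list, but means of 3.67 at Day 1 and 6.0 at Day 0 in the deposited lists. A region 51.7 kb beyond its 3′ end, on chr3:52401625-52401957, was called at Day 1 alone, at 5.49 ± 0.993 (SD, n = 3). Its summits lay 133.48, 133.39 and 133.44 kb downstream of the 5′ end. Separate Day 0 peaks that did not overlap it lay close by, at 132.96 and 132.91 kb in replicates 1 and 2. Their fold enrichments were higher, at 8.15 and 7.55, so the neighbourhood was not open at Day 1 alone. Foxo3 had a region 25.3 kb inside the gene, on chr10:42251221-42251584, with fold enrichments of 9.82, 10.4 and 5.87 at Day 1 and 5.61 in Day 0 replicate 1 alone. Gsk3b, a kinase gene that Akt holds in check, ranked 607, 748 and 773 at Day 1 and 1572, 532 and 1353 at Day 0 at its gene end. Gsk3a, its paralogue, was called at the gene end in every deposited list and in 2 equal lists of each day. Slc2a4, which encodes the insulin-responsive glucose transporter GLUT4, had no peak assigned in any of the 6 deposited lists and no summit of any assignment within 1 kb of its ends. Its absence is a lack of a call at these depths and not evidence of closed chromatin.

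Among genes of the mTOR complexes, Mtor itself had a gene-end peak in 3 deposited lists at Day 1 and 1 at Day 0, with fold enrichments of 6.0, 6.09 and 5.41 at Day 1 and 12.2 in Day 0 replicate 1. An end of Exosc10 lies within 1 kb of it. Rptor, which encodes the defining subunit of complex 1, had one in 1 at Day 1 and 3 at Day 0. Rictor encodes the defining subunit of complex 2, which phosphorylates Akt, and had 1 far region of each day. On chr15:6733043-6733528, 24.8 kb inside the gene, fold enrichments were 8.06, 8.65 and 5.40 at Day 1, against 9.62, 9.14 and 7.48 at Day 0, so they overlapped. On chr15:6721717-6722276, 13.6 kb inside, there was no Day 1 peak, and Day 0 values were 19.7, 17.5 and 12.1. The Rictor gene end had fold enrichments of 4.06, 5.59 and 5.24 at Day 1 and 6.94, 9.42 and 7.62 at Day 0 in the deposited lists, values that depth can move. Mlst8, a subunit of both complexes, and Tsc1, a subunit of the TSC brake, were called at the gene end in 3 Day 1 and 1 Day 0 equal lists each and in all 6 deposited lists. Tsc2, the partner of Tsc1, was given a gene-end peak in 0 deposited lists at Day 1 and 2 at Day 0, and Pkd1 and Nthl1 end within 1 kb of it. A summit of any assignment lay within 1 kb of the Tsc2 ends in Day 1 replicate 1 and in every Day 0 library. In Day 1 replicate 1 it lay 95 bp upstream of the listed start of Tsc2 and was given to a neighbour. Rheb, the small GTPase gene that switches complex 1 on, had a gene-end peak in all 6 equal lists at fold enrichments of 9.12, 9.57 and 9.63 at Day 1 and 14.2, 10.8 and 11.7 at Day 0. Far peaks of the 7 mTOR genes were few in equal lists, 3, 1 and 3 at Day 1, against 2, 1 and 2 at Day 0.

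A list of 83 other genes of the pathway, among them the mTOR regulators of amino acid sensing, also had open gene ends more often than coding genes at large. In the deposited lists 56.6% of them had a gene-end peak at Day 1 and 68.3% at Day 0 on average, between the signalling genes above (69.2% and 77.8%) and all coding genes (32.9% and 42.3%). Genes with a far peak made up 45.0% of the 83 at Day 1, against 60.7% of the signalling genes and 25.7% of coding genes. In equal lists 14 of their 153 regions were Day 1 only (9.15%, against 5.73% of all regions) and 10 were Day 0 only (6.54%, against 8.05%). Among far regions 13 of 99 were Day 1 only (13.1%, against 6.46%). More peaks in every Day 1 library were found at 8 of 67 genes (11.9%, against 6.06% of coding genes) and fewer at 4 (5.97%, against 6.51%). A gene-end peak in all Day 1 and no Day 0 equal lists was found at 1 of 52 (1.92%, against 4.29%). Their far peaks in equal lists averaged 48.7 ± 3.21 at Day 1 and 43.0 ± 5.0 at Day 0 (SD, n = 3 each), and the ranges overlapped. In deposited lists 4 of 410 regions were Day 1 only (0.976%, against 0.589%) and 63 were Day 0 only (15.4%, against 16.6%). Of the 24 regions of 1 day only in equal lists, those named here are the 6 with the highest fold enrichment on their own day, a value that varies with depth. They are Day 0 only and lie nearest to Prkci, Gab1, Mapkap1, Sgk1, Srebf1 and Cblb. Gab1 encodes a docking protein, Mapkap1 a subunit of mTOR complex 2, and Sgk1 a kinase downstream of it. Fold enrichment of the Prkci region was 17.8 ± 1.40 and that of Gab1 16.0 ± 0.684 at Day 0 (SD, n = 3 each), while that of Cblb, the last of the 6, was 12.5 ± 2.00.

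The genes' far regions lay inside the gene somewhat more often than those of coding genes at large, 59.2% against 52.0% in the deposited lists, and farther from the nearest end, at a median of 27.5 kb against 17.4 kb. Of 49 gene-end regions, 39 lay at the 5′ end, 6 at the 3′ end and 4 at genes with no listed start. Another 9 far regions lay within 1 kb of a listed start, at Ptpn1, Pdpk1, Shc1, Grb2, Akt2 and Tbc1d1. A far peak can therefore sit on a promoter where the listed start is away from the annotated gene end.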

How the data were processed

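The data are 6 ATAC-seq peak lists, 1 per library. The submitters' processing notes give mm10 as the build and list HOMER 4.11, DiffBind 3.8.4, MACS2 2.2.7.1, deepTools 3.5.1, SAMtools 1.15.1, Bowtie2 2.4.4 and Trim Galore 0.6.7, with no role given. Per the file headers, MACS2 called peaks in each library on whole paired-end fragments, with no control and a q cutoff of 0.05, so a peak marks fragment density and not the cut site. The authors' pileup is the unscaled signal at the summit, and their −log10 p and −log10 q compare it with a local background in the same library. Their fold enrichment, as deposited, divides pileup by that background as a ratio and varies with depth. Such values were used only to rank, filter or describe peaks.

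Summits on chromosomes 1 to 19 and on X and Y were assigned to the nearest end of 21883 coding genes of GRCm38.p6 with Python 3.11.15 and pandas 2.3.3. The gene table has no exons, so exon, intron and UTR positions are not given, and ends shared by neighbouring genes can move a peak between them. No genome sequence was used, so distal regions are given by position. Whole-list values were tested by two-sided exact permutation of the libraries, which cannot go below 0.1. The counting steps were tested on simulated data. No 2 libraries shared more than 3 identical peaks. Same-numbered libraries deviated together by r of −0.0365, 0.0544 and 0.00808 over 9136 shared regions, so the numbers were not taken to pair them.

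The members and gene lists were chosen with earlier results of these data known. Values per library are given for 12 core genes, for each member's strongest region of each day, and for members with no peak. Gene-end calls that differed by 2 or more libraries are given as values or as numbers of libraries. Other members named are given to account for all 39. Alternatives were deposited lists, ranking by fold enrichment, list lengths, q cutoffs, distance limits, bins, 2 of 3 libraries, the replicate block and leaving out each library.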

Additional observations from a re-analysis of the deposited data

How the results depend on the processing

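In deposited lists, which differ in length and depth, the difference between Day 1 and Day 0 reversed for genes with a gene-end peak (−3.33) and for far peaks (−83.0), and also for peaks per library of Irs2 (−5.67), Pik3r1 (−3.0) and Foxo1 (−2.33). Day 1 only regions numbered 7 and Day 0 only regions 41 there (2.48% and 14.5%, against 0.589% and 16.6% of all regions). In every Day 1 library 0 of 36 genes held more and 14 held fewer peaks (38.9%). Of all coding genes 0.213% held more and 32.7% fewer there. Lists of 6278 peaks gave differences of 3.33 genes and 3.67 far peaks, 2 Day 1 only and 3 Day 0 only regions (for Day 0 only 6.38%, against 7.1% of all regions), and 1 of 27 genes with more and 2 with fewer peaks (3.7% and 7.41%, against 4.74% and 6.03% of coding genes). At a −log10 q of at least 5 the far-peak difference was 8.0, with 5 Day 1 only regions (7.58%, against 5.28% of all regions). Within 50 kb it was 8.33, with 3 Day 0 only regions (3.8%, against 7.1%). Ranking by fold enrichment gave a difference of 11.0 genes with a gene-end peak. With Day 1 replicate 3 left out and lists lengthened to 20069, chosen after seeing the data, the far-peak difference was 17.8, with 14 of 35 genes with more and 3 with fewer peaks, against 10.2% and 8.87% of coding genes. The causes of these changes were not tested.

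Leaving out 1 library at a time gave Day 1 minus Day 0 differences of 12.7 to 14.7 for far peaks and 6.17 to 8.67 for genes with a gene-end peak. Day 1 only regions numbered 18 to 21 (17.5% to 22.6%, against 6.8% to 9.0% of all regions). Day 0 only regions numbered 7 to 8 (6.8% to 7.84%, against 9.35% to 10.3%). More peaks in every Day 1 library were found at 9 to 11 genes (25.7% to 31.4%, against 7.71% to 9.51% of coding genes). Fewer were found at 1 gene (2.86%, against 8.21% to 8.68%). The Day 1 minus Day 0 difference in gene-end share of all peaks ranged from 9.46 to 10.7 percentage points, and that in peak number from −30119 to −21969. Under the replicate block, exact sign flips gave p = 0.25 for both, at 10.1 points and −26939 peaks (n = 3 pairs), the smallest that 3 pairs allow, and no call changed. Day 1 depth limits what absence from a Day 1 list shows.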
